A study of Mus musculus with 22 samples.

Results

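The 33 genes described here encode the machinery that cuts and polyadenylates nuclear RNA and releases RNA polymerase II at gene ends. They were chosen by symbol, and all 33 are among the 11355 genes listed in either of 2 mouse RNA-seq libraries. Both libraries were made from 3T3-L1, a fibroblast line that can be turned into adipocytes. One library is labelled untreated and serves as the control, and the other is labelled siPcf11, for a small interfering RNA against Pcf11. The labels give both the strain C57BL/6, name no control siRNA and give no siRNA dose or time, so transfection and loss of Pcf11 cannot be told apart. With 1 library per group there is no replicate and no test, and every interval below covers counting error only and compares 2 libraries, not conditions.

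Most messenger RNA 3′ ends are made in one coupled reaction. The cleavage and polyadenylation specificity factor (CPSF) reads the AAUAAA signal and holds the endonuclease, the cleavage stimulation factor (CstF) binds downstream GU-rich RNA, and cleavage factors I and II (CFI and CFII) complete the complex. Poly(A) polymerase then adds the tail, poly(A)-binding proteins coat it, and a 5′ to 3′ exonuclease together with phosphatases of the polymerase's C-terminal domain ends transcription. PCF11 is a CFII subunit that also binds that C-terminal domain. Integrator cuts small nuclear RNAs and the transcripts of paused polymerase.

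The control library held 8573956 counts and the library labelled siPcf11 held 6992460. Pcf11 itself had 939 control counts and 840 in the library labelled siPcf11, which after scaling was 112% of the control (95% counting interval 102 to 123). With library totals as the scaling, its log2 interval ran from -0.0026 to 0.27 and held a ratio of 1. The RNA count of the targeted gene thus does not show the fall that the label implies, and protein was not measured here. Directions are therefore given as those of a library so labelled. Of 12 preadipocyte markers 11 were listed in both libraries, and Cd34 was unlisted. Before scaling, Col1a1 had 71107 control counts and 54613 in the library labelled siPcf11, Dlk1 had 4917 and 4892, and Zfp423 had 23 and 54. Of 8 mature adipocyte markers only Fabp4 was listed (845 and 552 counts). The summed level of 7 endothelial markers was 9.92 CPM (scaled counts per 1000000) in the control and 24.9 CPM in the library labelled siPcf11, all of it from Vwf and Selp, while Pecam1, Cdh5, Tek, Kdr and Tie1 were unlisted. Epithelial markers (6 genes) summed to 1.27 and 0 CPM, muscle markers (6 genes) to 2.19 and 2.17 CPM, and macrophage and leukocyte markers (6 genes) to 9.57 and 10.8 CPM. Only Krt8, Des, Cd68 and Csf1r were listed among those 18 genes. The part of these levels in the results was not tested.

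The median ratio of the factors lay close to that of all genes. Summed over the 33 factors, the level was 107% of the control (log2 ratio 0.10, interval 0.085 to 0.12). Pabpc1 alone held 19532 of the 56602 control counts in that sum. A gene was called higher when its scaled level in the library labelled siPcf11 was at least 125% of the control, and called lower when it was at most 80% of the control. By that measure 3 of the 33 factors were called higher (Ssu72, Nudt21 and Rprd1b), against 10.6% of the 9143 genes that had 100 or more counts over both libraries, and 2 were called lower (Cpsf4 and Cpsf1), against 12.8%. The factors' own shares were 9.09% and 6.06%, so neither count exceeded the background. The other 28 factors were called neither. With library totals as the scaling, 1 factor was called higher (Ssu72) and 3 lower (Cpsf4, Cpsf1 and Cstf3), so which direction holds more calls rests on the scaling. Among the 28 factors with 500 or more counts, 1 was called higher and 1 lower, against 6.56% and 7.51% of the 5443 genes of that depth. The median log2 ratio was -0.022 over the factors and 0.0016 over all genes. Ratios were above 1 for 15 factors (50.4% of all genes) and below 1 for 18 (49.6% of all genes).

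Counting error alone does not describe how far the libraries differ. The 95% counting interval lay above a ratio of 1 for 9 factors (27.3%) and below it for 8 (24.2%), against 19.5% and 19.7% of all genes. Among the 28 deeper factors it lay above for 8 (28.6%) and below for 7 (25.0%), against 24.0% and 22.0% of the deeper genes. The factors' shares were the larger in each case, which was not tested. With library totals as the scaling, the interval lay above 1 for 6 factors and below it for 9. An interval that leaves out 1 is therefore common in this pair of libraries and is given below as a description.

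**Figure D1:**
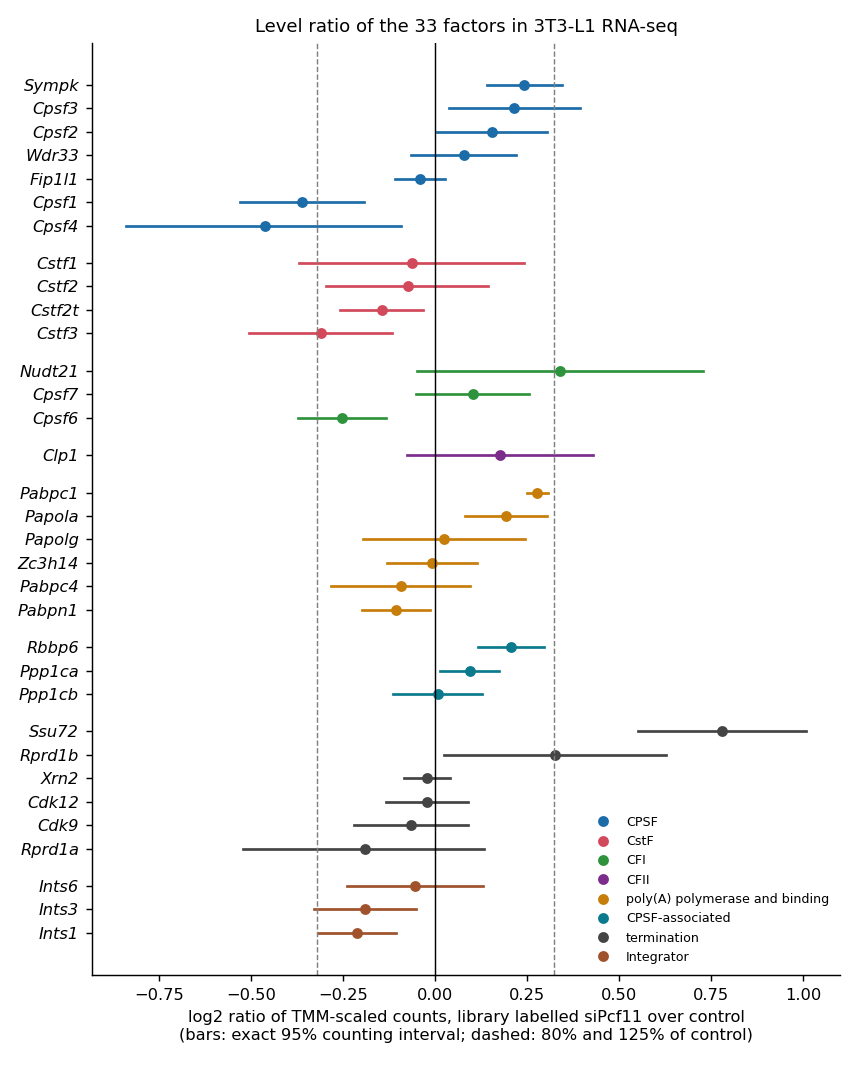
Log2 ratio of scaled counts (x axis) for each of the 33 factors (y axis), grouped by complex and coloured to match; lines are exact 95% counting intervals and dashed lines mark 80% and 125% of the control. Ssu72 lies farthest right at 0.78, Cpsf4 and Cpsf1 lie left of the lower dashed line, and all 4 CstF and 3 Integrator genes lie left of 0.

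Within CPSF the subunits went both ways. The genes of the nuclease module were all above the control. Cpsf3, the endonuclease that makes the cut, had 538 control counts and 498 in the library labelled siPcf11, or 116% of the control after scaling (interval 103 to 131). Its inactive partner Cpsf2 had 790 and 701 counts (111%, interval 100.4 to 123). Sympk, the symplekin scaffold that joins CPSF to CstF, had 1642 and 1549 counts (118%, interval 110.3 to 127). None of these was called higher.

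Of the genes of the signal-recognition module, Cpsf1, Cpsf4 and Fip1l1 were below the control and Wdr33 was above it. The intervals of Fip1l1 and Wdr33 held the control level. Cpsf1, the large scaffold subunit of the module, had 758 control counts and 470 in the library labelled siPcf11 (87.4 and 68.0 CPM). That is 77.8% of the control (interval 69.2 to 87.4). Cpsf4, the zinc-finger protein that contacts the AAUAAA signal, had 166 and 96 counts (19.1 and 13.9 CPM), or 72.5% (interval 55.8 to 93.8), the lowest ratio of the 33. These subunits were the only factors called lower. Wdr33, the other protein that contacts the signal, had 888 and 747 counts (105%, interval 95.6 to 116). Fip1l1, which recruits the polymerase, had 4031 and 3126 counts (97.3%, interval 92.8 to 102). Summed over the 7 CPSF genes there were 8813 and 7187 counts, or 102% of the control. The split into modules follows their known roles and was made with the values in view.

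The 3 proteins that work beside CPSF were at or above the control. Rbbp6, a ubiquitin ligase that activates cleavage, had 2122 and 1952 counts (115%, interval 108 to 123). The protein phosphatase catalytic subunit Ppp1ca had 2833 and 2410 counts (107%, interval 101 to 113). Its paralog Ppp1cb had 1254 and 1005 counts (100.5%, interval 92.4 to 109).

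All 4 CstF genes were below the control, and none was called lower with TMM scaling, while Cstf3 was with library totals (log2 ratio -0.34). Cstf3, the scaffold on which CstF dimerises, was the lowest and just short of a call, with 557 control counts and 358 in the library labelled siPcf11 (80.6%, interval 70.4 to 92.2). Cstf2t, a retroposed copy of Cstf2 that codes for a second RNA-binding subunit, had 1536 and 1107 counts (90.4%, interval 83.6 to 97.7). Cstf2, the RNA-binding subunit from which that copy arose, had 399 and 302 counts (94.9%, interval 81.5 to 110.5). Cstf1, the WD-repeat subunit, had 207 and 158 counts (95.7%, interval 77.3 to 118). Together the 4 genes had 2699 and 1925 counts, or 89.4% of the control (log2 ratio -0.16, interval -0.25 to -0.076). For a set of 4 with 49.6% of all genes below 1, a shared direction is a description only.

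The subunits of CFI, which binds UGUA elements and favours distal poly(A) sites, lay on both sides of the control. Cpsf6, one of the larger subunits, had 1441 and 964 counts, or 83.9% of the control (interval 77.2 to 91.1). Cpsf7, the alternative larger subunit, had 748 and 640 counts (107%, interval 96.4 to 119). Nudt21, the small subunit that contacts UGUA, had 113 and 114 counts (13.0 and 16.5 CPM), or 127% of the control, called higher but with an interval of 96.7 to 166. It was the factor with the fewest counts. Within the 3 CFI genes, Cpsf6 took 62.6% of counts in the control (interval 60.6 to 64.6) and 56.1% in the library labelled siPcf11 (interval 53.7 to 58.5).

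Clp1, the RNA kinase that is PCF11's partner in CFII, had 274 control counts and 247 in the library labelled siPcf11. That was 113% of the control (interval 94.8 to 135), next to the 112% of Pcf11. The width of the Clp1 interval leaves a difference of this size undetectable at this depth.

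**Figure D2:**
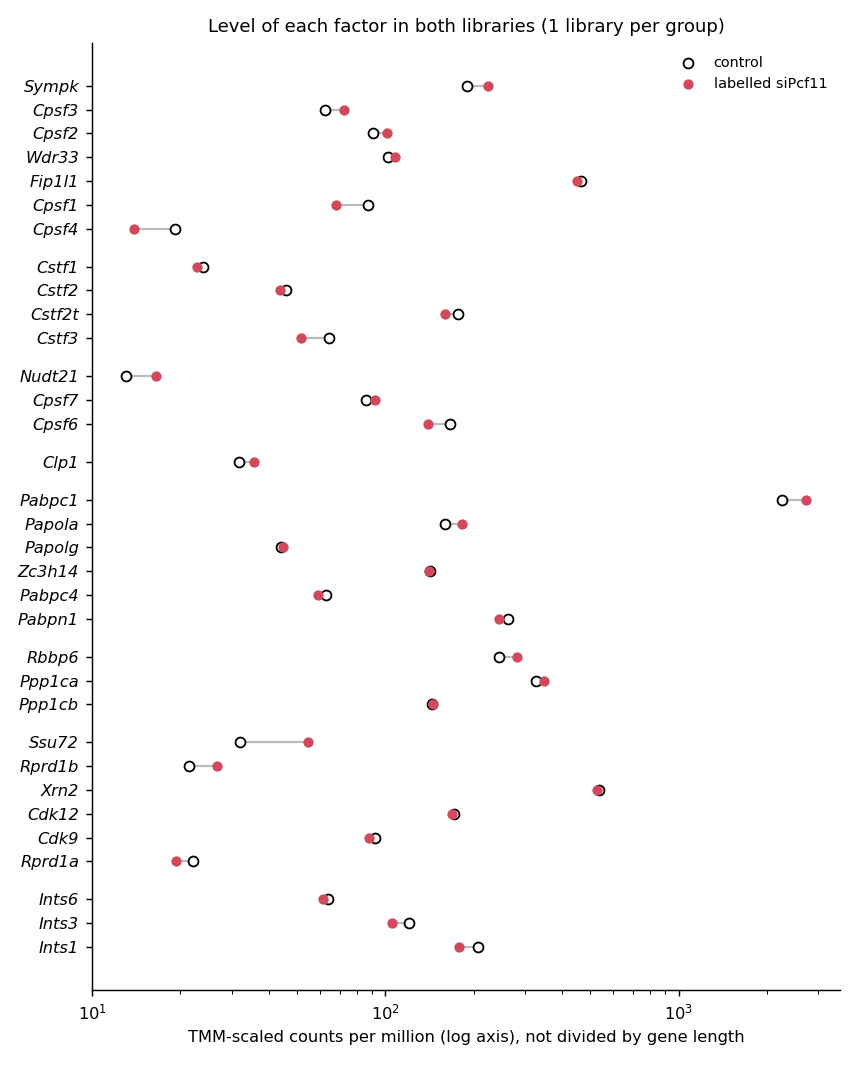
Scaled level of each factor in CPM on a log axis, with the control as open circles and the library labelled siPcf11 as red circles. The widest gap is that of Ssu72, from 31.8 to 54.7 CPM, and most pairs of circles touch or overlap; levels are not divided by gene length, so genes are not compared with one another.

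Among the poly(A) polymerases and poly(A)-binding proteins, Pabpc1 stood out by its precision more than by its size. Pabpc1, the main cytoplasmic poly(A)-binding protein, had 19532 control counts and 18878 in the library labelled siPcf11, or 121% of the control (interval 119 to 124), still under the 125% of a call. Papola, the canonical nuclear poly(A) polymerase, had 1382 and 1259 counts (114%, interval 106 to 123). Its paralog Papolg had 381 and 309 counts (102%, interval 87.3 to 118). Pabpn1, which coats the growing tail in the nucleus and spurs the polymerase, had 2276 and 1686 counts (92.9%, interval 87.2 to 99.0). Pabpc4, a second cytoplasmic poly(A)-binding protein, had 546 and 408 counts (93.7%, interval 82.2 to 107). Zc3h14, a zinc-finger protein that binds nuclear poly(A), had 1230 and 975 counts (99.4%, interval 91.3 to 108). The 6 genes together reached 116% of the control, but Pabpc1 alone made up 77.1% and 80.3% of their counts.

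Ssu72 was the factor that differed most. It codes for a phosphatase of the polymerase's C-terminal domain that removes the phosphate from serine 5 and works with symplekin. Ssu72 had 276 control counts and 378 in the library labelled siPcf11, although the latter was the smaller library. Its scaled level was 31.8 CPM in the control and 54.7 CPM in the library labelled siPcf11, a log2 ratio of 0.78 (interval 0.55 to 1.01), or 1.72-fold higher. It was the only factor past 1.5-fold, against 2.15% of all genes higher and 3.47% lower by that fold. Counted from the highest ratio, Ssu72 ranked 60 of 9143 genes with at least 100 counts and 5 of 5443 genes with at least 500. Under either other scaling its log2 ratio was 0.75 or 0.78. The termination group holds 6 genes, with the kinases Cdk9 and Cdk12 placed in it. Of that group's counts, Ssu72 took 3.65% in the control (interval 3.23 to 4.09) and 6.19% in the library labelled siPcf11 (interval 5.59 to 6.82).

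Of the remaining genes in the termination group, Xrn2, Cdk9, Cdk12 and Rprd1a were below the control, with intervals that held its level. Rprd1b was above the control. Xrn2, the exonuclease that degrades the RNA left on the polymerase after cleavage, had 4635 and 3640 counts (98.5%, interval 94.3 to 103). Cdk9, the kinase of P-TEFb, had 798 and 608 counts (95.5%, interval 85.8 to 106). Cdk12, a kinase of the C-terminal domain needed for full-length transcription of long genes, had 1486 and 1166 counts (98.4%, interval 91.1 to 106). Rprd1a and Rprd1b code for paired proteins that bind the C-terminal domain. Rprd1b had 185 counts in each library, which is 125% of the control after scaling (interval 102 to 155) and lies just past the 125% of a call, while Rprd1a had 192 and 134 counts (87.5%, interval 69.7 to 109.7).

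**Figure D3:**
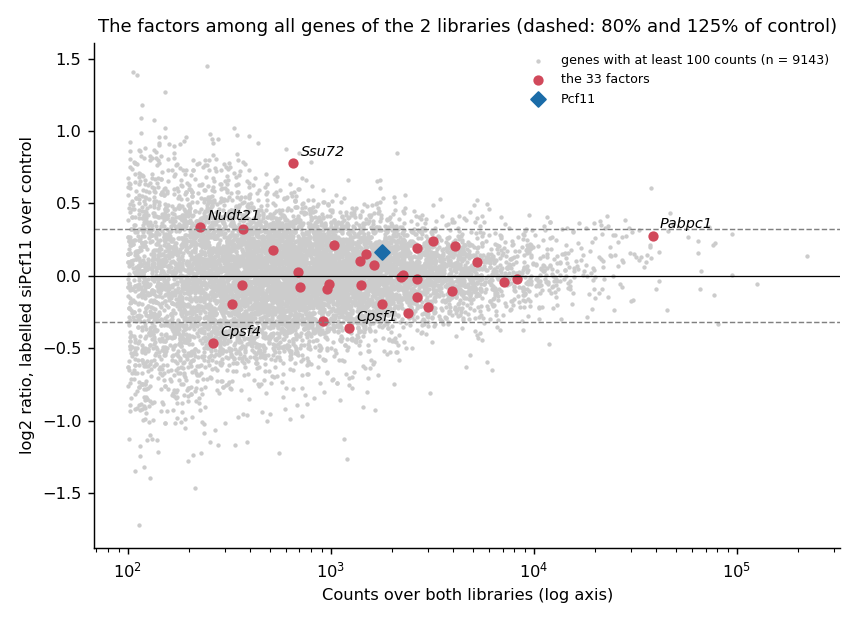
Log2 ratio (y axis) against counts over both libraries (log x axis) for 9143 genes (grey), the 33 factors (red) and Pcf11 (blue diamond); dashed lines mark 80% and 125% of the control. Ssu72, at 654 counts, sits at the upper edge of the grey cloud, and the other factors lie within it.

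The 3 Integrator members were all below the control without being called lower. Ints1, the largest scaffold subunit, had 1789 and 1231 counts (86.3%, interval 80.2 to 92.8). Ints3, which also belongs to a complex that binds single-stranded DNA, had 1045 and 730 counts (87.6%, interval 79.6 to 96.4). Ints6, which links Integrator to a protein phosphatase, had 552 and 424 counts (96.3%, interval 84.7 to 109.5). Their sum was 3386 and 2385 counts, 88.3% of the control. The list of other Integrator genes also holds Nabp1 and Nabp2, which are single-stranded DNA-binding partners of Ints3 and not named as Integrator subunits. Of its 13 genes with 100 or more counts, 0 were called higher, 2 lower and 11 neither, with a median log2 ratio of -0.029. The shares of all genes were 10.6% higher and 12.8% lower. Those lower were Nabp1, a single-stranded DNA-binding partner of Ints3, with 367 and 196 counts (67.0%), and Ints14, with 248 and 152 counts (76.9%). Ints11, the endonuclease of the complex and a relative of Cpsf3, had 754 and 610 counts (101%).

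Several factors exist as pairs of related genes, and the share of a pair's counts taken by its first gene does not depend on the scaling of the libraries. Rprd1a took 50.9% of the counts of Rprd1a and Rprd1b in the control (interval 45.8 to 56.1) and 42.0% in the library labelled siPcf11 (interval 36.5 to 47.6). The log2 ratio of Rprd1a was 0.52 below that of Rprd1b, with an exact interval of the difference from -0.97 to -0.069. Pabpc1 took 97.3% and 97.9% of the counts of Pabpc1 and Pabpc4, a difference of 0.37 in log2 ratio (interval 0.18 to 0.56). For the other pairs the interval of the difference held 0. Cstf2 took 20.6% and 21.4% of counts beside Cstf2t (difference 0.071, interval -0.18 to 0.32). Papola took 78.4% and 80.3% beside Papolg (difference 0.17, interval -0.080 to 0.42), and Ppp1ca 69.3% and 70.6% beside Ppp1cb (difference 0.086, interval -0.059 to 0.23). How the authors assigned reads shared between related sequences is not given in the sources used here, so the split within a pair is uncertain.

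**Figure D4:**
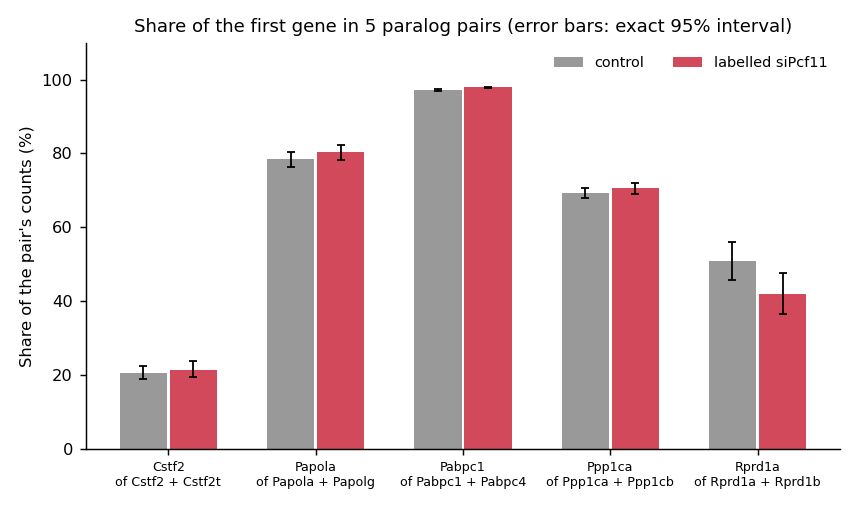
Share of a pair's counts in percent (y axis, from 0) taken by the first gene of each of 5 pairs, in the control (grey) and the library labelled siPcf11 (red), with exact 95% intervals. The bars of each pair are close to equal except for Rprd1a, at 50.9% and 42.0%.

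Genes that act on the same polymerase around these factors were drawn from lists made by role. Of 14 genes listed around P-TEFb and CDK12, among them Cdk7, Ccnh and Mnat1 of the CDK7 kinase, 0 were called higher and 2 lower. These counts stand beside 10.6% and 12.8% of all genes, and the list's median log2 ratio was -0.060. Ccnh, the cyclin of the CDK7 kinase, had 300 and 162 counts (67.7%, interval of the log2 ratio -0.85 to -0.28). Hexim1, the inhibitor that holds P-TEFb inactive, had 877 and 536 counts (76.6%, interval of the log2 ratio -0.54 to -0.23). The cyclins that pair with Cdk9 and Cdk12 were called neither. Ccnt1 had 359 and 254 counts (88.7%, interval 75.3 to 104), and Ccnk had 347 and 314 (113%, interval 97.1 to 133).

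Of 14 elongation and PAF complex genes, 0 were called higher and 1 lower (2 lower with library totals), against 10.6% and 12.8% of all genes. The list's median was 0.018. Nelfe, the RNA-binding subunit of the pausing factor NELF, had 980 and 546 counts (69.9%, interval of the log2 ratio -0.67 to -0.36). Its partners Nelfa (437 and 339 counts, 97.3%), Nelfb (538 and 455, 106%) and Nelfcd (486 and 449, 116%) were called neither. The interval of Nelfcd ran from 102 to 132, and those of Nelfa and Nelfb held the control level. Of 14 phosphatases and other proteins of the C-terminal domain, 0 were called higher and 1 lower, against the same shares of all genes. Their median was 0.077. The gene called lower was Ctdsp1, a small phosphatase of that domain, with 624 and 394 counts (79.2%). Scaf4 and Scaf8, which keep the polymerase from ending too early, were called neither. Scaf4 had 1344 and 1117 counts (104%, interval 96.2 to 113), and Scaf8 had 1449 and 1284 (111%, interval 103 to 120).

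Of 6 genes of histone messenger RNA 3′ ends with 100 or more counts, 1 was called lower and 0 higher. The shares of all genes were 12.8% and 10.6%, and the list's median was -0.036. Lsm10, a subunit of the U7 particle that processes histone messengers, had 102 and 37 counts, or 45.5% of the control (log2 ratio -1.14, interval -1.72 to -0.58). Its 139 counts over both libraries are near the limit of 100. Under that limit, Lsm11, another subunit of the particle, had 20 and 23 counts (144%, interval 75.7 to 277). Zfp473, also under it, had 19 and 0. Slbp, which binds the histone stem-loop, had 929 and 660 counts (89.1%). Snrpb and Snrpd3, which the U7 particle shares with the spliceosome, were above the control after scaling and called neither. Snrpb had 1113 and 1070 counts (121%, interval 111 to 131), and Snrpd3 had 1092 and 965 (111%, interval 102 to 121).

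**Figure D5:**
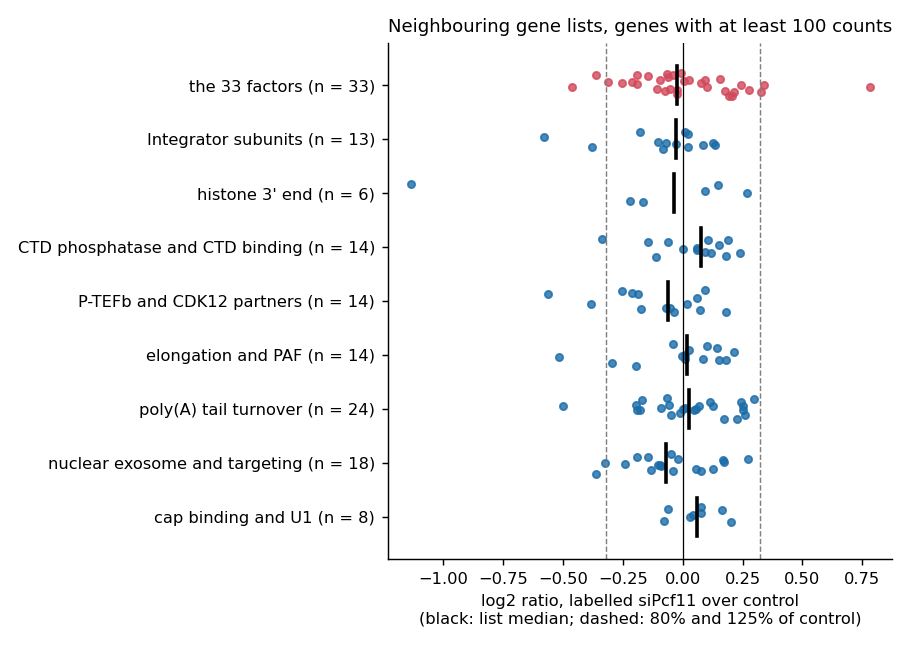
Log2 ratio (x axis) of each gene with at least 100 counts in the 33 factors (red) and 8 lists of neighbouring function (blue); black bars are list medians and dashed lines mark 80% and 125% of the control. Medians of all lists lie between -0.071 and 0.077, and points outside the dashed lines on the high side belong, among the lists drawn, to the 33 factors alone.

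Over these 8 lists, 111 genes had 100 or more counts, of which 0 were called higher (10.6% of all genes) and 10 lower (12.8% of all genes). The median log2 ratio of the 111 genes was 0.0080, and that of the 33 factors was -0.022.

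Some values carry a limit from gene position or sequence. In the RefSeq table of GRCm38.p6, 18 of the 33 factors overlap another annotated gene and 7 overlap one that is itself in the count tables, namely Cpsf1 (Adck5), Cpsf3 (Itgb1bp1), Cstf1 (Aurka), Cpsf7 (Tmem216), Zc3h14 (Eml5), Ppp1ca (Rad9a) and Rprd1b (Tti1). Whether counting used strand is not given, so reads of overlapping genes cannot be told apart. RefSeq promoters were matched for 28 of the 33 factors. In the 250 bases before the start, the letters TATAAA, on either strand, were found in 1 of the 28 (Pabpc4), 3.57%, against 7.34% of 7306 genes with at least 100 counts. The GC-box letters GGGCGG were found in 15 of the 28, 53.6%, against 67.7% of those genes. A match is a description of these letters and not a binding site.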

How the data were processed

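The 2 RNA-seq libraries of 3T3-L1 cells were used, 1 per group, grouped by the sample titles. The authors deposited raw read counts per gene symbol, whole numbers with no normalization, per the file headers and values. No gene under 5 counts is listed, so an unlisted gene was entered as 0. Cutadapt, Bowtie2, STAR and the build mm9 appear in the submitters' processing notes with neither role nor version; the counter, the annotation and the strand setting are not stated there. The 20 3′READS libraries list mm9 positions without gene names and were not used here, as no annotation of that build was at hand. Gene or coding lengths of that build were not used either, so levels were not compared between genes.

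Counts were scaled over all genes with TMM factors from edgeR 4.0.16 in R 4.3.3, with library totals and DESeq2 1.42.0 size factors as alternatives. No test was run, since there is 1 library per group. Log2 ratios are of scaled counts without a pseudocount, and 95% intervals are exact (Clopper-Pearson for shares of counts, conditional for the difference within a pair). They cover counting error only, since there is 1 library per group. They also take the counts as independent, and PCR copies are not independent molecules, so they may be too narrow. The interval calculation was tested on simulated counts that varied by counting error alone. That checks the calculation and cannot show whether the intervals cover the spread between real libraries. Backgrounds are genes with at least 100 counts over both libraries, or at least 500. All 33 factors were named, and of the 8 other lists each gene called, by the same thresholds of 125% and 80% of the control. Beyond that rule, Ints11, Ccnt1, Ccnk, Nelfa, Nelfb, Nelfcd, Scaf4, Scaf8, Slbp, Snrpb, Snrpd3, Cnot1 and Snrnp70 were named for their roles, with values seen. The members and lists were chosen with earlier results of these data known. Tables and plots used Python 3.11.15, pandas 2.3.3, numpy 2.4.6, scipy 1.17.1 and matplotlib 3.10.9.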

Additional observations from a re-analysis of the deposited data

How the results depend on the processing

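With library totals, 1 factor was called higher and 3 lower (Cstf3 gained), and 2 genes of the elongation and PAF list were lower. With a fold of 1.1, 10 factors were higher and 8 lower, and of the 111 genes of the other lists 23 were higher and 27 lower. The share of all genes at that fold was not taken, so these counts are not read as a result about the factors. With a fold of 1.5, 1 factor was higher and 0 lower, against 2.15% and 3.47% of all genes. Of all genes of 500 or more counts, 6.56% were called higher and 7.51% lower. The other 44 values of counts, medians and Pcf11 under alternatives stayed within 1.5 times or within their spread. So did 85 of 86 log2 ratios of single genes, and Pabpc1 moved to 0.245 with library totals. Each alternative scaling shifts all genes by the same log2 amount (-0.032 for library totals, -0.0014 for DESeq2). Staying within an interval thus follows from its width and is no separate check. With library totals the interval lay above 1 for 6 factors instead of 9, and below for 9 instead of 8. The log2 interval of Pcf11 then ran from -0.0026 to 0.27. Levels per coding or transcript length were not run. No paired analysis was possible because each group has 1 library, so no library could be left out either. Depth limits Nudt21, Cpsf4 and Rprd1a most, whose log2 intervals are 0.78, 0.75 and 0.66 wide.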

Other observations

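The lists of genes that act on the finished tail and on discarded RNA also had medians close to that of all genes. The counts called in each list stand beside 10.6% of all genes called higher and 12.8% called lower. Of 24 genes of poly(A) tail turnover, 0 were called higher and 1 lower, with a median log2 ratio of 0.027. Btg2, which recruits the CCR4-NOT deadenylase, had 71 control counts and 40 in the library labelled siPcf11 (70.7%, interval of the log2 ratio -1.10 to 0.078). Cnot1, the scaffold of that deadenylase, had 2848 and 2344 counts (103%). Of 18 genes of the nuclear exosome and its targeting complexes, which degrade faulty and short nuclear transcripts, 0 were called higher and 2 lower, with a median of -0.071. Exosc3, a cap subunit, had 256 and 159 counts (77.9%, interval of the log2 ratio -0.66 to -0.069), and Exosc9, a ring subunit, had 308 and 196 (79.8%, interval of the log2 ratio -0.59 to -0.062). Of 8 genes of the cap-binding complex and the U1 particle, which shields early poly(A) sites from use, 0 were called in either direction, with a median of 0.058. Snrnp70, the U1-specific protein that contacts U1 RNA, had 5012 and 3788 counts (94.8%).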
